A study of Rattus norvegicus with 18 samples.

Results

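Of 6 groups of rats profiled in the study, the comparison described here sets high against low responders to training before any training, which takes 6 of the 18 libraries. HRT rats come from a line bred for a large gain in running distance over a treadmill training programme and LRT rats from a line bred for a small gain, both derived from the outbred N:NIH stock. The 3 HRT and 3 LRT rats were males of generation 15 that were left untrained. Their running capacity was first tested at 10 to 12 weeks of age and was tested again after the period in which other rats trained, so the untrained rats did run on those occasions. Gastrocnemius muscle was taken 48 h after the last test, and 1 RNA-seq library was made per rat. HRTT and LRTT, 3 rats each, are males of the same lines and generation after 8 weeks of training, and they are used below only where they bear on the untrained rats. Members were chosen by the group in the sample labels. The lines are the only stated difference between HRT and LRT, and 3 rats stand for each line.

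The gastrocnemius is a mixed calf muscle made of slow, oxidative fibres and fast, glycolytic fibres, which use different forms of the same contractile proteins. Endurance training raises the mitochondrial content of muscle and can move fibres toward the slow type, while muscle wasting runs through FOXO transcription factors and the genes they turn on. Rats of the responder lines differ in how far the same training programme lifts their running capacity, so differences in untrained muscle are differences that exist before the stimulus is given.

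A pair of data types speaks to the comparison, and they could not be joined. The deposited count table holds reads per gene for each rat under Ensembl identifiers, with no gene names. A deposited table of the genes that the authors called between HRT and LRT holds names, but gives 1 pooled level per group, in a unit the file does not name, without a spread or a number of rats. Statements about error therefore come from the counts, and statements about named genes are descriptions of pooled levels with no test. Because the names of the counts are not given, the skeletal muscle label could not be checked against muscle markers in single rats.

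In the pooled levels, more of the listed genes were lower than higher in the untrained high responders. The table lists 234 names, of which 64 had a higher level in HRT and 170, or 72.6%, a lower level. The median ratio was 2.03 among the names higher in HRT and 1.97 among those lower in HRT, and no listed name differed by less than 1.52-fold, so genes with smaller differences are not represented. More than 4-fold apart were 10 names higher and 21 names lower in HRT. The names lower in HRT had a median level of 5.62 in LRT and 2.41 in HRT. Of 23 lists of muscle, metabolic, immune and regulatory genes with 614 distinct genes, 30 genes (4.89%) are in the table, 11 with a higher and 19 with a lower level in HRT, and 8 lists have no gene in it. The counts of single lists below stand against 2 shares: 4.89% of list genes listed, and 72.6% of all listed names lower in HRT. The share of 4.89% is taken over the genes of these lists, not over all genes.

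**Figure D1:**
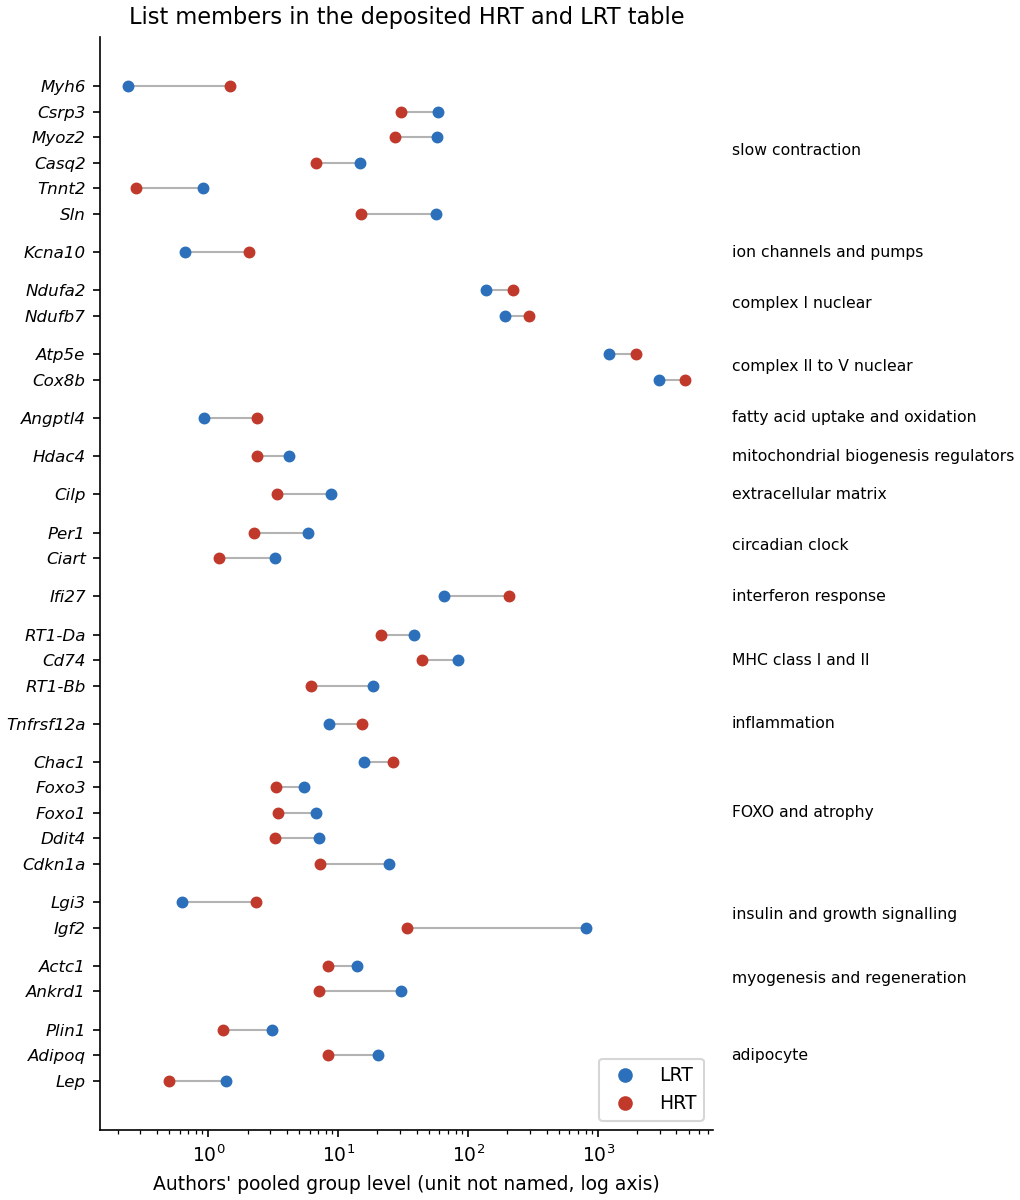
Pooled levels in LRT (blue) and HRT (red) of the list members that the deposited table names, on a log axis with the unit left unnamed by the table, and 1 point per group and no error since the table gives none. Of the 6 slow contraction genes, 5 lie to the left in HRT, the 4 respiratory chain genes lie to the right in HRT, and Igf2 has the widest gap.

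Contractile genes of slow and cardiac-type fibres were listed in both directions. Of 20 slow contraction genes, 6 are in the table, 5 lower and 1 higher in HRT, and of 18 fast contraction genes none is. The lower names are near their share over the whole table. Sarcolipin (Sln), a small inhibitor of the calcium pump of the sarcoplasmic reticulum, had a level of 56.3 in LRT and 14.9 in HRT, 3.78-fold lower in HRT. Tnnt2, the cardiac form of troponin T, had 0.905 in LRT and 0.279 in HRT. Casq2, the calsequestrin that stores calcium in slow and cardiac muscle, had 14.6 in LRT and 6.75 in HRT. Of proteins of the Z-disc, which anchors the thin filaments, Myoz2, a calcineurin-binding protein, had 57.5 and 27.1 in LRT and HRT, and Csrp3, the muscle LIM protein, had 58.6 and 30.1. Palladin (Palld), an actin-binding protein also found at the Z-disc and outside the list, was higher in HRT, with 4.24 and 8.58. Myh6, the alpha cardiac myosin heavy chain, went the other way, with 0.241 in LRT and 1.46 in HRT, both low levels.

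For 5 genes of the slow contraction list that are absent from the table of the untrained lines, levels in both lines can be read elsewhere. They are in the 2 tables of training within each line, which hold only genes called for training. Myh7, the slow myosin heavy chain, is not among them. The 2 tables of training share 33 names that are not in the HRT and LRT table, of which 25 differed by less than 1.5-fold between LRT and HRT. Leaving out the names of the HRT and LRT table, all at least 1.52-fold apart, favours small differences among those that remain. The 33 names include the 5 genes of the slow contraction list. Slow troponin T (Tnnt1) had 98.1 in LRT and 89.1 in HRT, tropomyosin 3 (Tpm3) 98.6 and 87.1, slow myosin light chain 2 (Myl2) 60.8 and 42.1, slow troponin C (Tnnc1) 111 and 65.0, and the titin-binding stretch protein Ankrd2 11.9 and 7.54. Each of the 5 was lower in HRT, by 1.10-fold in Tnnt1 and by up to 1.70-fold in Tnnc1, but so were 30 of all 33 names, so the direction is not particular to the slow contraction genes. These tables were normalized separately: genes that 2 tables share had an HRT level 1.02 times as high (median of 25 names) in the table of the untrained lines as in the table of training within the high responders, and an LRT level 1.00 times as high (50 names). No spread between rats is given, so how these differences compare with it was not tested.

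The 4 table entries from the lists of nuclear respiratory chain genes were higher in HRT, and these lists were represented at about the share of all list genes. Of 36 nuclear genes of complex I, 2 are in the table, Ndufa2 with 137 in LRT and 222 in HRT and Ndufb7 with 190 and 295. Of 42 genes of complexes II to V, 2 are in the table. Cox8b, the heart and muscle form of a small cytochrome c oxidase subunit, had 2950 in LRT and 4676 in HRT, and Atp5e, the epsilon subunit of the ATP synthase, had 1216 and 1953. All 4 are small subunits and their ratios lay between 1.55 and 1.62. Ndufa10l1, named for its likeness to a complex I subunit and not on the list, was lower in HRT, with 5.98 in LRT and 2.03 in HRT. No gene of the lists for mitochondrially encoded subunits, the TCA cycle, glycolysis and glycogen, angiogenesis, calcium handling or antioxidant defence is in the table. The 3 names with the highest levels are loci numbered on a record of the rat mitochondrial genome, AY172581, and they were lower in HRT. AY172581.10 had 748133 in LRT and 210310 in HRT, AY172581.7 had 474163 and 140695, and AY172581.18 had 27605 and 8231. They were also lower in HRTT than in LRTT, at 0.179, 0.191 and 0.281 times the LRTT level. The table does not say which mitochondrial RNA each locus makes. In the counts, only 2 of the 1067 genes that averaged over 100 CPM (counts scaled to the size of the library) in HRT or LRT were more than 2-fold apart, with means of 26.8 and 99.2 CPM in HRT against 821 and 238 CPM in LRT, so no gene of very high count showed such a gap. Whether these loci are among the genes counted is not given. Of 26 regulators of mitochondrial biogenesis only Hdac4, a histone deacetylase that restrains the slow fibre programme, is listed, with 4.15 in LRT and 2.37 in HRT.

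Of 34 genes of the FOXO and atrophy list, 5 are in the table, 4 lower and 1 higher in HRT, which is near the share of lower names over the whole table. Foxo1 had 6.73 in LRT and 3.45 in HRT, and Foxo3 had 5.45 and 3.31; both are transcription factors that drive protein breakdown in muscle. Cdkn1a, the p21 inhibitor of the cell cycle, had 24.4 in LRT and 7.18 in HRT, 3.40-fold lower. Ddit4, an inhibitor of the growth kinase mTORC1, had 7.15 and 3.24. Chac1, which degrades glutathione and is induced by the integrated stress response, was higher in HRT, with 15.7 in LRT and 26.5 in HRT. Of the E3 ubiquitin ligases that mark muscle proteins for breakdown in this list, none is among the listed names. Outside the lists and chosen after its level was seen, the ectodysplasin receptor Eda2r had 7.42 in LRT and 1.43 in HRT, and the arrestin-domain gene Arrdc2 had 12.4 and 2.37.

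Igf2 showed the widest gap of any list member. Of 25 insulin and growth signalling genes, 2 are in the table, 1 lower and 1 higher in HRT. Igf2, a fetal growth factor, had a level of 801 in LRT and 33.9 in HRT, 23.6-fold lower in HRT, and it was also 1 of the 10 names with the highest levels. Lgi3, a secreted leucine-rich protein, had 0.628 in LRT and 2.33 in HRT. Of 30 genes of myogenesis and regeneration, 2 are in the table, both lower in HRT. Ankrd1, a cardiac ankyrin repeat protein induced by muscle injury and stretch, had 30.1 in LRT and 7.09 in HRT, and Actc1, the cardiac alpha actin also made by immature muscle, had 14.0 and 8.32. The pooled levels cannot say whether 1 rat or all 3 carry such a gap. In the counts, where the gene names are not given, 1 of the 1067 genes over 100 CPM was more than 4-fold apart. That gene had 1610, 26.4 and 827 CPM in LRT replicates 1, 2 and 3 and 24.7, 30.1 and 25.6 CPM in HRT replicates 1, 2 and 3. LRT replicates 1 and 3 were thus far above every HRT rat and LRT replicate 2 lay within the HRT range, and the difference did not pass the test (edgeR, adjusted p = 0.500). It was singled out after its values were seen, and which name it carries is not given in the files.

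Markers of fat cells were lower in HRT, and so was the lipid enzyme gene Scd. Scd, the stearoyl-CoA desaturase that makes monounsaturated fatty acids, had 12.5 in LRT and 0.329 in HRT, 38.1-fold lower, the largest ratio of the table among names lower in HRT. The following genes were named after their levels were seen. The paralog Scd2, which lies near Scd in the RefSeq gene order with 1 gene between them, had 15.4 in LRT and 5.15 in HRT. Fasn, the fatty acid synthase, had 1.22 and 0.468, Thrsp, a regulator of lipogenesis, 9.79 and 3.14, and Dgat2, which completes triglyceride synthesis, 14.9 and 9.39. G0s2, an inhibitor of the breakdown of stored fat, went the other way, with 54.6 in LRT and 91.1 in HRT. Of 12 marker lists for the cell types a muscle sample can hold, only that of fat cells has a gene in the table: 3 of its 5 markers are listed and all 3 are lower in HRT. Adipoq, the fat cell hormone adiponectin, had 20.3 in LRT and 8.30 in HRT, Plin1, the coat protein of fat droplets, 3.10 and 1.29, and Lep, the hormone leptin, 1.36 and 0.500. In bulk muscle, fewer cells of a type and less RNA per cell cannot be told apart, and the part of the fat cell markers in the lower levels of Scd, Scd2, Fasn, Thrsp and Dgat2 was not tested. In the same lists, Angptl4, a secreted inhibitor of lipoprotein lipase counted under fatty acid use and among secreted factors, was higher in HRT, with 0.928 in LRT and 2.38 in HRT.

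Both circadian clock genes in the table were lower in HRT. Of 19 clock genes, Per1, a repressor of the core clock, had 5.86 in LRT and 2.24 in HRT, and Ciart, a repressor that also sits in the negative limb of the clock, had 3.26 and 1.21. The study singled out clock genes, these among them, in trained rats of the same lines, so the list is not independent evidence of their direction. The hour of dissection of each rat is not given in the sources used here, so time of day and line cannot be told apart for these genes. Clock and BMAL1 proteins bind the E-box, the letters CACGTG, and this is why the RefSeq promoter of Ciart is printed here (GRCr8, chr2:186112197-186112496, minus strand, 250 bases before the start of the gene and 50 after it), with E-boxes in capitals.
Ciart promoter: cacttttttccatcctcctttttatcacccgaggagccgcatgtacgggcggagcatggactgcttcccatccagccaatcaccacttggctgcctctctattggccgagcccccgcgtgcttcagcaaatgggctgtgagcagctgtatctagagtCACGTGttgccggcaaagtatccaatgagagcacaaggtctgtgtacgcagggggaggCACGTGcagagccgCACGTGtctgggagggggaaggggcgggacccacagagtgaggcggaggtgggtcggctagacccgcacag
The window holds 3 E-boxes, at bases 158, 216 and 230 counted from its first base. Of 33469 RefSeq promoter windows of the same length, 6.42% hold at least 1 E-box on either strand (the motif reads the same on both) and 0.0568% hold 3 or more. The window of Per1 holds none, which says only that these letters are not in those 300 bases. Of the 208 windows that belong to names in the table, 18, or 8.65%, hold an E-box.

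Immune genes were listed in both directions. Of 21 genes of MHC class I and II, 3 are in the table and all 3 were lower in HRT. The class II chain RT1-Da had 38.3 in LRT and 21.1 in HRT, the class II chain RT1-Bb had 18.5 and 6.14, and Cd74, the invariant chain that escorts class II molecules, had 83.0 and 44.3. RT1-Db2, a further class II chain that lies next to RT1-Da and is not on the list, had 3.19 and 0.551. MHC genes have near-identical copies, so reads of 1 copy can be assigned to another. Ifi27, the only 1 of 35 interferon response genes in the table, was higher in HRT, with 64.9 in LRT and 204 in HRT. Tnfrsf12a, the receptor of the cytokine TWEAK and 1 of 35 inflammation genes, had 8.44 and 15.1. Cilp, a cartilage matrix protein and the only 1 of 41 matrix genes listed, was lower in HRT, with 8.83 and 3.36. None of the few markers fixed for macrophages, T and B cells, neutrophils and mast cells, endothelium, fibroblasts, smooth muscle, satellite cells, tendon or red blood cells is in the table. Genes known from such cells that are on none of these lists are in it, in both directions. Vwf, a clotting factor made by endothelium, had 3.09 in LRT and 1.97 in HRT, a locus holding the smooth muscle actin Actg2 had 6.94 and 3.53, and Trem2, a receptor of macrophages, had 0.310 and 1.09.

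The names with the largest ratios include few muscle genes. A locus named for Fcar, an Fc receptor for IgA, together with an unnamed gene had 0.0859 in LRT and 19.6 in HRT, the largest ratio of the table at 228, over a level near 0 in LRT. Rnf212, known as a meiotic crossover factor, had 0.170 in LRT and 3.03 in HRT. Slc2a13, a proton-coupled inositol transporter, had 0.832 and 6.20, Trim45, a ubiquitin ligase, 1.53 and 6.75, and Ptgr1, a prostaglandin reductase, 0.370 and 2.35. The potassium channel Kcna10, the only 1 of 17 genes of the ion channel and pump list in the table, had 0.662 in LRT and 2.05 in HRT, while Kcna2, the channel gene beside it in the RefSeq order, had 0.630 and 0.112. Among the names lower in HRT, the unnamed locus AC117869.1 had 51.8 in LRT and 1.73 in HRT, and it had 60.0 in LRTT and 1.29 in HRTT. Prrt4 had 1.90 in LRT and 0.102 in HRT. Atp1a4, a catalytic subunit of the sodium pump best known from sperm, was lower in HRT, with 1.08 in LRT and 0.121 in HRT. Stmn3, a stathmin that binds tubulin, had 1.16 and 0.156. Of the highly expressed names, Glul, the glutamine synthetase, had 426 in LRT and 223 in HRT.

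The counts, taken over all genes without names, show how large the differences between the lines were beside the spread between rats. Total counts ran from 32099533 to 36045341 in HRT and from 37849730 to 41446415 in LRT, and 16785 to 17286 genes per rat had at least 1 count. Of 13478 genes tested, 1 was called between HRT and LRT (adjusted p under 0.05 by the Benjamini-Hochberg method in edgeR, and more than 1.5-fold apart), which is 0.00742% of those tested, and it was higher in HRT. With DESeq2 there were 20 calls, 9 of them higher and 11 lower in HRT, while edgeR with the HRT and LRT libraries alone called 5, and a minimum of 10 counts in every HRT and LRT library left 0. An unadjusted p under 0.05 was reached by 1288 genes, or 9.56%, against 674 at a rate of 5%, with 692 higher and 596 lower in HRT. The 3 HRT rats lay wholly above or wholly below the 3 LRT rats in 2187 genes, or 16.2%, with 1137 higher and 1050 lower. Since 6 rats have 10 groupings of 3 against 3, this share stands against 10% with no line effect, not against 5%. More than 1.5-fold apart were 1068 genes, 373 higher and 695 lower in HRT, while the median over all genes was -0.01 on the log2 scale. Without LRT replicate 2 this split was 681 higher and 799 lower. Among genes of 10 to 100 CPM, 667 of 5518 had an unadjusted p under 0.05, and here more were higher (406) than lower (261) in HRT. Among genes under 1 CPM it was 136 of 2205, with 55 higher and 81 lower.

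The called gene, ENSRNOG00000021555, was nearly silent in the low responders and expressed in every high responder. It had 131, 128 and 159 reads in HRT replicates 1, 2 and 3 and 1, 6 and 3 reads in LRT replicates 1, 2 and 3, or 4.11 ± 0.513 CPM in HRT and 0.0834 ± 0.0653 CPM in LRT (SD, n = 3). The groups did not overlap, and HRT exceeded LRT by 5.57 ± 0.43 on the log2 scale (SE; edgeR, adjusted p = 0.000268). When single rats were left out, this difference stayed between 5.17 and 6.30 and the gene stayed called in 6 of 6 fits. Rats that had trained gave the same picture, with 115, 131 and 105 reads in HRTT and 1, 2 and 6 reads in LRTT.

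The other identifiers that the naming rule gives did not pass the adjusted threshold. ENSRNOG00000019050 had 67, 68 and 85 reads in the 3 HRT rats and none in any LRT rat, the only tested gene at 0 in all 3 LRT rats. Against a floor of 3 reads in each LRT library it was at least 28.9-fold higher in HRT (edgeR, adjusted p = 0.500). In the trained rats it had 67, 144 and 0 reads in HRTT and none in LRTT, so 1 high responder also lacked it. With no read in any low responder, ENSRNOG00000019050 passed the filter on counts only through the high responders. That it was the only such gene tested depends on this filter. ENSRNOG00000049829 had 14, 9 and 8 reads in HRT and 464, 34 and 22 in LRT, and ENSRNOG00000018598 had 236, 480 and 356 reads in HRT and 3983, 719 and 638 in LRT. In both genes the groups did not overlap, which the naming rule required, but LRT replicate 1 stood far above the other LRT rats. Without LRT replicate 1 the log2 fold change of HRT against LRT went from -3.84 to -1.17 in ENSRNOG00000049829 and from -2.12 to -0.68 in ENSRNOG00000018598. Other settings changed the call of 2 of these genes. ENSRNOG00000049829 passed in DESeq2's Wald test (adjusted p = 0.0173), and ENSRNOG00000019050 passed in edgeR with the HRT and LRT libraries alone (adjusted p = 0.00360).

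**Figure D2:**
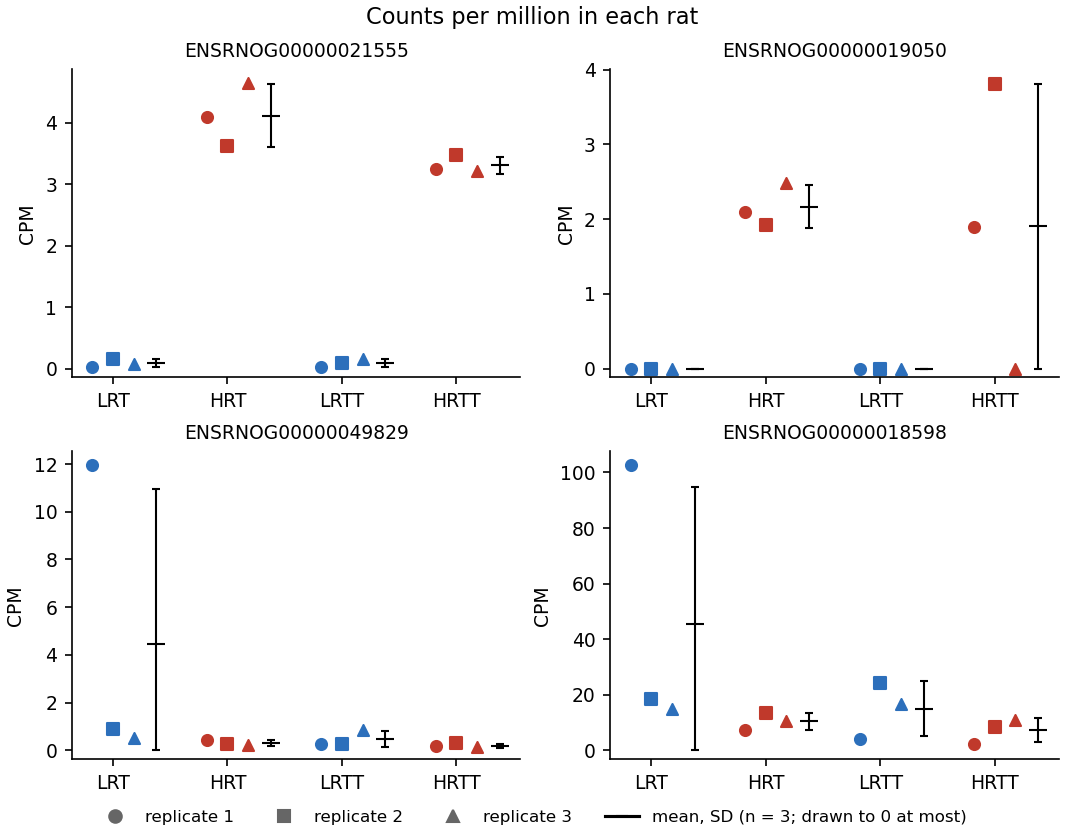
Scaled counts (CPM, linear axes) of the 4 identifiers in each of 12 rats, with LRT and LRTT in blue, HRT and HRTT in red, a marker shape per replicate number, and the mean and SD (n = 3) in black. ENSRNOG00000021555 separates the lines in both states, ENSRNOG00000019050 is at 0 in 1 HRTT rat, and the 2 lower panels rest on LRT replicate 1.

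Single rats of this kind were common among genes lower in HRT. Of 196 genes more than 2-fold lower in HRT, the highest LRT rat had over 2 times the level of the middle one in 76, and that rat was LRT replicate 1 in 43, replicate 2 in 26 and replicate 3 in 7. Of 87 genes more than 2-fold higher in HRT, the highest HRT rat stood out in this way in 18, spread over the 3 HRT rats as 7, 7 and 4. Leaving out LRT replicate 1 reduced the genes at an unadjusted edgeR p under 0.05 from 1288 to 587, and leaving out HRT replicate 3 reduced them to 644, while leaving out HRT replicate 2 raised them to 1667. The reduction was mainly among abundant genes. Among genes of 10 CPM or more, 775 of 6513 (11.9%) had an unadjusted p under 0.05 with all rats, 275 of 6495 (4.23%) without LRT replicate 1 and 331 of 6538 (5.06%) without HRT replicate 3. The surplus of higher genes among these, 469 against 306 with all rats, was 148 against 127 without LRT replicate 1 and 165 against 166 without HRT replicate 3.

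**Figure D3:**
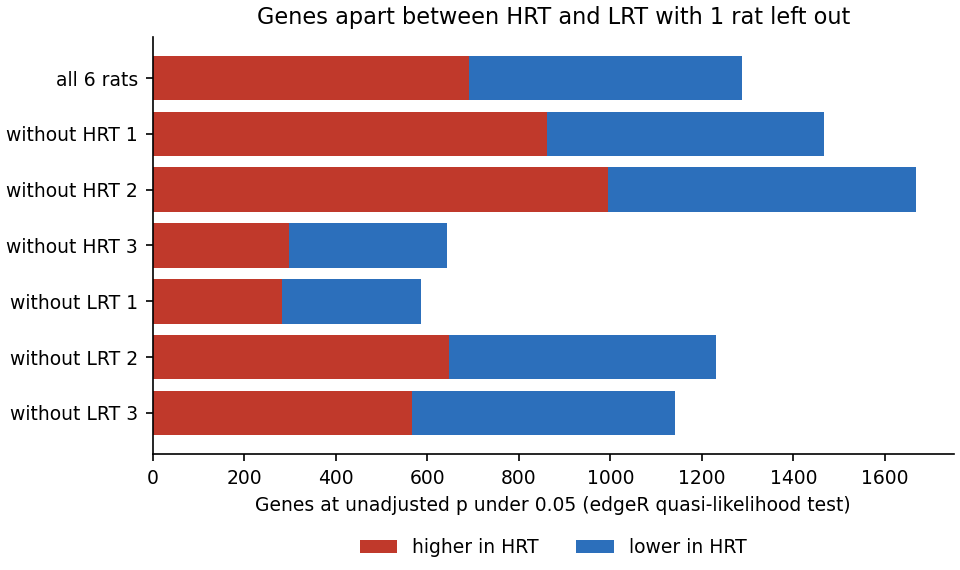
Number of genes at an unadjusted edgeR p under 0.05, higher (red) and lower (blue) in HRT, with all 6 untrained rats and with 1 rat left out. The count is 1288 with all rats, 587 without LRT replicate 1, 644 without HRT replicate 3 and 1667 without HRT replicate 2.

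The 6 rats did not separate by line over the most variable genes. Over the 500 most variable genes, the distance between rats on the log2 CPM scale was 43.1 ± 8.32 between the lines (SD, 9 pairs) and 44.3 ± 7.07 within them (6 pairs). The difference of -1.18 had p = 0.5 in a one-sided exact permutation test, where 0.1 is the smallest p that 3 rats against 3 allow. Its sign was not stable: it was 0.960 over all genes kept (exact permutation p = 0.5), 1.12 without HRT replicate 1 and 0.673 without LRT replicate 3. The nearest rat was of the same line in 2 of 6 rats. On the first principal component, with 47.1% of the variance, HRT replicate 1 (24.4) and LRT replicate 2 (29.7) lay apart from the other rats of both lines (-21.9 to -9.86). On the second component, with 20.6%, the HRT scores of 12.8, 11.9 and 5.68 lay above the LRT scores of -24.1, -8.78 and 2.48. A number in the column headings of the count table, whose meaning is not explained, was 2 for all HRT rats and 3, 1 and 1 for LRT replicates 1, 2 and 3, so within the untrained rats what it marks cannot be told apart from the line. In the trained rats it was 2 for all LRTT and 3 for all HRTT rats. For the called gene ENSRNOG00000021555, HRT (131, 128 and 159 reads) and LRTT (1, 2 and 6 reads) carry the same number and do not overlap. These groups differ in both line and training, and the part of what the number marks was not tested.

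**Figure D4:**
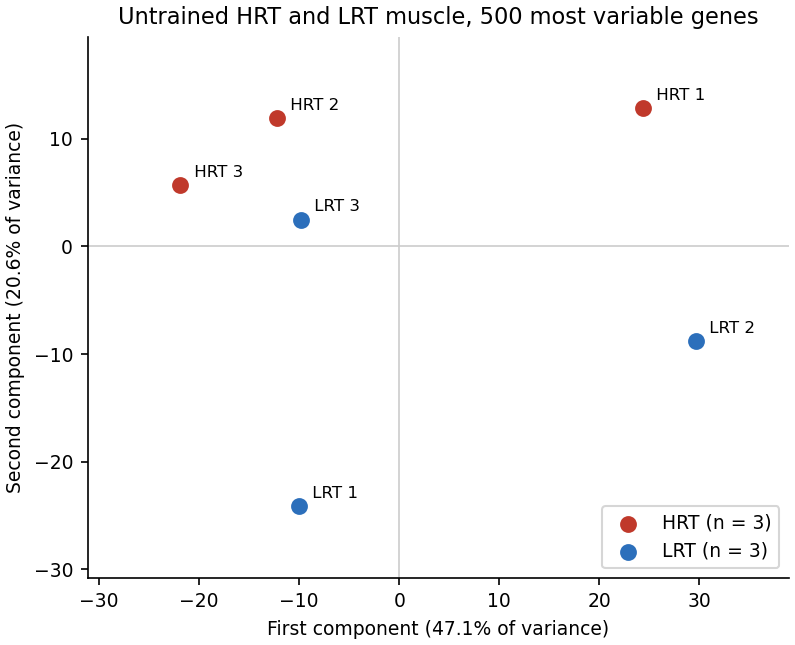
Scores of the 6 untrained rats on the first 2 principal components of log2 CPM over the 500 most variable genes, HRT in red and LRT in blue. The first component sets HRT replicate 1 and LRT replicate 2 apart from the rest, and the second has the 3 HRT rats above the 3 LRT rats.

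The trained rats, which share no animal with HRT and LRT, show which of these differences were present in other rats of the lines. In the untrained rats, 328 genes had an unadjusted edgeR p under 0.05, a difference above 1.5-fold and no overlap between the lines. In HRTT against LRTT, 234 of them, or 71.3%, had the same sign, against 58.1% of all tested genes. The trained lines did not overlap in the same direction in 61 of the 328 (18.6%) and in the opposite direction in 13 (3.96%), against 7.20% and 3.73% of all tested genes. The median size of the difference was 0.83 on the log2 scale in the untrained rats that chose the genes and 0.21, taken in the same direction, in the trained rats. The difference between the 2 line effects had an adjusted edgeR p under 0.05 in 0 of the 13478 genes. An unadjusted one was reached by 502, or 3.72%. Among the 328 genes, the unadjusted p was under 0.05 in 80 and the adjusted p in 0. The untrained difference that chose the 328 genes also enters this test, so a surplus among them is partly built in.

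By name, 58 of the 234 genes, or 24.8%, are also among the 254 names of the table of the trained lines (22.8% of that table). Both tables hold only genes the authors called, so a gene missing from one may still differ there. The lines kept their order in 52 of the 58, 13 higher and 39 lower in the high responders, and turned it in 6. Of the list members, 12 are in both tables. Lgi3 (0.352 in LRTT and 2.89 in HRTT), Kcna10 (0.279 and 2.90) and Ifi27 (85.0 and 177) stayed higher in the high responders after training. Cdkn1a (14.5 in LRTT and 6.26 in HRTT), Ankrd1 (9.66 and 4.89), Cilp (5.20 and 2.95), Per1 (3.86 and 2.07) and Ciart (2.47 and 0.582) stayed lower. The remaining 4 turned. Sln, 3.78-fold lower in HRT than in LRT, had 38.1 in LRTT and 304 in HRTT, and Actc1 had 12.5 and 28.9. Myh6 was higher in HRT than in LRT, but had 4.79 in LRTT and 0.332 in HRTT, and Chac1 had 30.1 and 9.87. The others that turned were Trim45, with 7.29 in LRTT and 3.77 in HRTT, and Kera, the matrix proteoglycan keratocan, with 5.07 in LRT, 15.2 in HRT, 25.3 in LRTT and 0.276 times the LRTT level in HRTT. Whether these turns exceed the spread between rats was not tested, since the tables give 1 level per group.

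**Figure D5:**
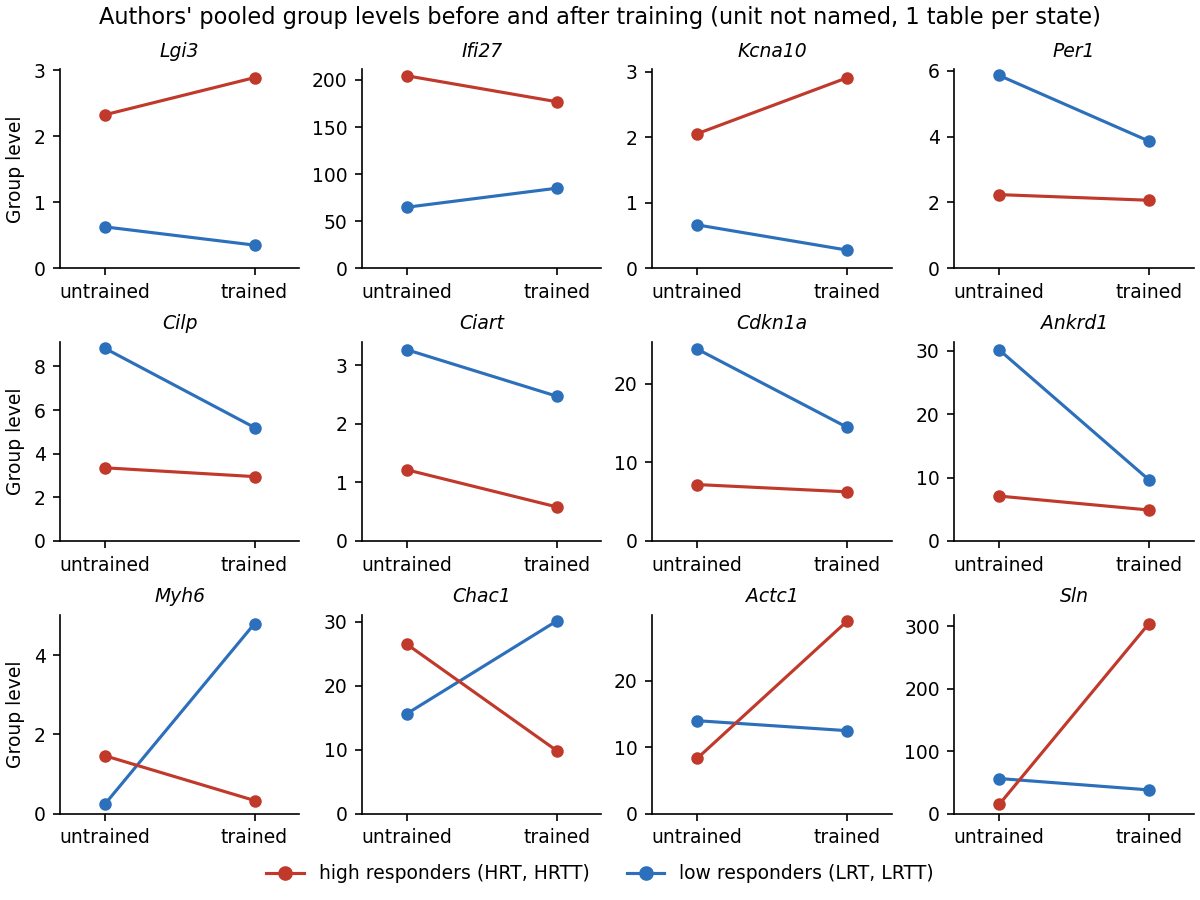
Pooled group levels of the 12 list members named in both tables of the lines, untrained (LRT, HRT) and trained (LRTT, HRTT), in a unit the tables do not name and with no error given; the lines join groups of different rats. In the upper 8 panels the lines keep their order, and in Myh6, Chac1, Actc1 and Sln they cross.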

How the data were processed

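Gastrocnemius RNA was sequenced as single reads of 50 bases. The authors deposited raw counts per gene made with featureCounts 1.6.4 on Rnor_6.0 with Ensembl release 91, strand ignored and overlapping genes sharing reads, so a gene and an overlapping or antisense partner cannot be told apart. Further tables, which the authors also deposited, list their Cuffdiff calls after TopHat2 2.1.1 and Cufflinks, with a pooled level per group in a unit that is not named. Their columns of fold changes, p-values and q-values were not used.

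The counts entered edgeR 4.0.16 (R 4.3.3) with filterByExpr (count minimum 10), TMM scaling, and a robust quasi-likelihood fit of 12 libraries with a term per group, which share 1 estimate of the spread. A call needed an adjusted p under 0.05 (Benjamini-Hochberg) and more than a 1.5-fold difference. DESeq2 1.42.0, other filters and left-out rats were alternatives. Distances used log2 CPM with a prior count of 2.

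The identifiers of the counts could not be paired with names (198 of the 234 names, but no identifiers, matched RefSeq symbols), so list members could not be tested in the counts. Named identifiers are the called gene and, in each direction, those with the largest difference among genes of at least 1 CPM with an unadjusted p under 0.05 and no overlap, 2 per direction being printed. Named symbols are list members, the 10 highest levels and the 10 largest ratios each way among names with a level of at least 1 in either group. Palld, Kcna2, Kera, Ndufa10l1, Vwf, Actg2 and Trem2 were named after their levels were seen. The comparison and the lists were chosen with earlier results of these data known. No replicates were close enough to count as 1 sample.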

Additional observations from a re-analysis of the deposited data

How the results depend on the processing

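The single call, ENSRNOG00000021555, kept its place under RLE scaling, without a filter, without a fold threshold, with glmTreat, at an adjusted p under 0.10 and in the block over 12 libraries. A minimum of 10 counts in every HRT and LRT library removed the gene from the test and left 0 calls by edgeR, with 1213 genes at an unadjusted p under 0.05. The count of calls was 20 with DESeq2's Wald test (9 higher and 11 lower in HRT), which gave no adjusted p for 25 genes, and 5, all higher in HRT, with the HRT and LRT libraries alone. Of the 20, 19 had the same sign in the trained rats. Leaving out 1 rat gave 1 to 4 calls, and 587 to 1667 genes at an unadjusted p under 0.05, with the lowest counts without LRT replicate 1 (587) and HRT replicate 3 (644). The difference between distances turned to 0.960 over all genes kept, to 1.12 without HRT replicate 1 and to 0.673 without LRT replicate 3. Without the replicate block given below, its range was -2.93 to 1.12, and the cause of the turns was not tested. Genes more than 1.5-fold apart, counted without each rat after the data were seen, numbered 1097 to 1712 against 1068, in each case with more lower than higher in HRT.

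With the replicate number as a block, 5 genes were called in the 6 libraries and the difference between distances was 2.16 (one-sided exact permutation p = 0.3). HRT and LRT rats of the same number correlated at -0.289, -0.211 and 0.0943, and 0 of 6 rats correlated best with their own number, so the numbers were not taken to pair rats. Counts per list under other settings were not run, since identifiers could not be named. Genes under 1 CPM limit what a fold change can show, with a median SD within groups of 0.45 on the log2 scale against 0.18 at 10 to 100 CPM.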
